A study of Homo sapiens with 136 samples.

Results

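The 9 genes described here, AGR2, DEFB1, GPA33, TM4SF4, DPP4, ALPP, ALDH1A1, TRIM31 and LINC01133, are 9 of 25435 gene symbols measured in 2 human pancreatic cancer lines. They were picked because they were among the strongest rises under MEK and ERK inhibitors in AsPC-1 cells, or because they are known from the gut lining. They were thus selected on their levels in AsPC-1 libraries with MEK or ERK inhibitors, set against those without a kinase inhibitor. Levels in that contrast are given below as a description and carry no test.

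AsPC-1 and PANC-1 are established lines of pancreatic ductal adenocarcinoma. The kinases RAF, MEK and ERK act in this order in a pathway that carries growth signals to the nucleus. Cells grew in serum-containing medium in multi-well plates and were treated for 24 h. RNA was then counted by PLATE-Seq, a pooled method that barcodes the RNA of each well. In each line 68 libraries form 30 groups in a set A and a set B, marked by codes in the sample titles. The sets are called plates A and B here, although the labels do not say whether the codes stand for culture plates or library pools. The RAF inhibitors sorafenib, dabrafenib, RAF709, PLX8394 and GDC-0879 make 20 libraries per line. The MEK inhibitors trametinib, cobimetinib, binimetinib, selumetinib and refametinib make another 20, and the ERK inhibitors SCH772984, ulixertinib, AZD0364 and ravoxertinib make 16. Each of these 14 drugs was combined with hydroxychloroquine (HCQ), which blocks lysosomal breakdown, or with Compound 19, an inhibitor of the lipid kinase Vps34 (Vps34i), in 2 libraries, 1 per plate. The comparison libraries, called alone below, held only HCQ (6 libraries) or only Vps34i (6 libraries), 3 per plate. Every library thus contains an autophagy inhibitor, and untreated cells are not analysed here. Doses were set where 80% of cells stayed viable after 48 h of the single agent, so they differ between drugs and their values are not in the labels used here. Nothing states that libraries of a group came from separate cultures, so the p-values rest on the spread between libraries, and that spread may be technical only.

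In the gut, enterocytes absorb nutrients through a brush border of membrane hydrolases, and goblet cells secrete mucins that are folded in the endoplasmic reticulum. Pancreatic ductal tumours of the classical type share part of this programme with the gut. AGR2 is an endoplasmic reticulum disulfide isomerase that mice need to make intestinal mucin. DEFB1 is an antimicrobial peptide of epithelia, GPA33 a surface antigen of intestinal epithelium and TM4SF4 a four-pass membrane protein of gut and liver. DPP4 is a brush border exopeptidase that inactivates incretin hormones. ALPP is the placental alkaline phosphatase, a relative of the intestinal enzyme ALPI, and ALDH1A1 oxidises retinaldehyde to retinoic acid. TRIM31 is a RING-type E3 ubiquitin ligase of gut epithelium, and LINC01133 is a long noncoding RNA.

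Library totals ran from 1419228 to 5172291 counts in AsPC-1 (median 3351744.5) and from 1668713 to 5871860 in PANC-1 (median 3636445.5). Levels are CPM, that is counts scaled to the library total. They are not divided by transcript length, so levels are compared between libraries and not between genes. In 20 sets of 6 alone libraries, those of the 9 genes in AsPC-1 and of AGR2 in PANC-1 for each autophagy inhibitor, Dixon's test found no library that stood apart. Epithelial markers were all present in AsPC-1 (6 of 6), and their summed level was 4355 to 7723 CPM with MEK inhibitors, 4821 to 6541 with ERK inhibitors and 2557 to 5824 with RAF inhibitors, against 2931 to 4036 alone. Summed fibroblast markers were 73.7 to 246 CPM with MEK inhibitors and 88.04 to 281 with ERK inhibitors, against 43.3 to 85.3 alone, and nearly all of this was 1 of the 6 genes, LUM (150.8 CPM on average with MEK inhibitors, 170.1 with ERK inhibitors and 62.2 alone). The fibroblast receptor gene PDGFRB had no count in any MEK library. The part of these markers in the results below was not tested. Summed immune markers reached 13.95 CPM in AsPC-1 (with MEK inhibitors, against up to 12.95 alone). In PANC-1 they reached 11.02 CPM (with RAF inhibitors, against up to 8.75 alone). Summed markers of endothelium and acinar cells stayed at or below 2.97 CPM in every library of both lines. In a bulk library, fewer cells of a type and less RNA per cell cannot be told apart.

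The label gut-type was checked against genes that define gut cells. The enterocyte enzyme SI, the fatty acid binding protein FABP1 and the intestinal regulator CDX1 had no count in any AsPC-1 library. The regulator CDX2 averaged 0.84 CPM with MEK inhibitors and 1.08 with ERK inhibitors, against 0.47 alone. Keratin 20 (KRT20) averaged 0.28 CPM with MEK inhibitors and 0.05 alone, and the intestinal phosphatase ALPI averaged 0.77 CPM with MEK inhibitors and 0.21 alone. The goblet cell mucin MUC2 did not exceed 0.58 CPM. These 7 genes were at or near 0, whereas other genes of enterocytes, described further below, had enough counts to be tested.

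On GRCh38, annotated by GENCODE release 29, AGR2 is on chromosome 7 (16791811 to 16833433, minus strand), GPA33 on chromosome 1 (167052836 to 167166479, minus) and TM4SF4 on chromosome 3 (149473974 to 149503281, plus). DPP4 is on chromosome 2 (161992241 to 162074542, minus) and ALPP on the same chromosome (232378534 to 232382889, plus). ALDH1A1 is on chromosome 9 (72900662 to 73080442, minus). TRIM31 on chromosome 6 (30102897 to 30113106, minus) overlaps TRIM31-AS1 on the other strand. Whether strand was used in counting is not given in the sources used here, so reads of the pair cannot be told apart. LINC01133 is a lincRNA on chromosome 1 (159961218 to 159984750, plus).

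Promoters are shown because 8 of the 9 genes moved together in AsPC-1 while DPP4 moved little. RefSeq (GRCh38.p14) gave a window of 300 bases, 250 before to 50 after the annotated start, for 8 members. AGR2 (chr7:16804950-16805249, minus strand), ALDH1A1 (chr9:72953004-72953303, minus) and LINC01133 (chr1:159960974-159961273, plus) each held AGATAA, the letters GATA factors bind, and AGGAAG, the letters bound by ETS factors of the ELF type. Both strands were searched, and these letters were in 10.3% and 33.6% of 35116 RefSeq promoters. In AGR2 the capitals also mark TTTATG (on the other strand), the letters of CDX factors, found in 10.6% of promoters. Of the windows shown here and below, those of AGR2, ALDH1A1, TM4SF4 and DPP4 lie inside the longer GENCODE genes. Most of the ALPP window also lies inside its GENCODE gene. Sequences run 5′ to 3′ along the gene, and capitals mark a motif on either strand.
AGR2: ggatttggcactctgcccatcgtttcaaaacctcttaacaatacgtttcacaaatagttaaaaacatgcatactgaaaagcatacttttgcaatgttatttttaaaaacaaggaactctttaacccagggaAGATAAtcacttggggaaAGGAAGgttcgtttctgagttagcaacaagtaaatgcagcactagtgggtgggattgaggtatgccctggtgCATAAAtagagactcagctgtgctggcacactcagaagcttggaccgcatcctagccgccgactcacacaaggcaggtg
ALDH1A1: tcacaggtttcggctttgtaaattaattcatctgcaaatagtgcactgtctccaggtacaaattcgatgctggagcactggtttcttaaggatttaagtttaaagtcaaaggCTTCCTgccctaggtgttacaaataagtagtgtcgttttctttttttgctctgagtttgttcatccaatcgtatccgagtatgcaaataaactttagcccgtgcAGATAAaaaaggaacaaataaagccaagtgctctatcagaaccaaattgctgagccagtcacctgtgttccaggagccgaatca
LINC01133: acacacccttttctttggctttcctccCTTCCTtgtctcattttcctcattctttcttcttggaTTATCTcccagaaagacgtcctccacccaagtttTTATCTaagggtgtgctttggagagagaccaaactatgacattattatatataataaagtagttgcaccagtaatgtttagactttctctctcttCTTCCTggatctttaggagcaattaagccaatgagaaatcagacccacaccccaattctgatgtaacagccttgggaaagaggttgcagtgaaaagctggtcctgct
TM4SF4 (chr3:149474447-149474746, plus strand) held TTTATG, the TATA box letters TATAAA at 31 bases before the start, and GTTAAT (on the other strand), part of an HNF1 site. TATAAA was in 11.5% of promoters and in 2 of 8 member windows, TM4SF4 and TRIM31, and GTTAAT was in 6.88%. DPP4 (chr2:162074166-162074465, minus) held GGGCGG of KLF and SP1 factors on the other strand at 2 places, letters found in 44.95% of promoters and in no other member window.
TM4SF4: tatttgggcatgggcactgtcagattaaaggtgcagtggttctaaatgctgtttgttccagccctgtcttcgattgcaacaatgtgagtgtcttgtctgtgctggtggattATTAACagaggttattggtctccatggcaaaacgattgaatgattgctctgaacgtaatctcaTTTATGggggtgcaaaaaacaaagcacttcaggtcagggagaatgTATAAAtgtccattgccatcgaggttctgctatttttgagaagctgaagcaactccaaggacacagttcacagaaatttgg
DPP4: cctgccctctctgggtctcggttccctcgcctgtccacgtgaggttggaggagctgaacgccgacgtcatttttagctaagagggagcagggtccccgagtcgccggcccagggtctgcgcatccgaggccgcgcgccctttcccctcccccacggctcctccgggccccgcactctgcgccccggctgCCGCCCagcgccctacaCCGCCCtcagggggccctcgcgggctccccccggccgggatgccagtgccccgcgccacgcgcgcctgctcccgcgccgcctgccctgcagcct
The AP-1 letters TGANTCA (7.71% of promoters), the HNF4 letters CAAAGTCCA (0.384%) and the FOXA letters TGTTTAC (3.42%) were in none of the 8 windows. A match is a run of letters and not a measured binding site.

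ALPP needs a separate word on identity, because its neighbour ALPG, a placental-like alkaline phosphatase, is nearly the same. Of the 31-base words in ALPP transcripts, 34.1% occur in another gene and 30.2% in ALPG, so counts can be split between them. Their promoters are also close relatives, with 254 of 300 aligned bases identical (84.7%), and only ALPG (chr2:232406594-232406893, plus strand) held GGGCGG where ALPP (chr2:232378501-232378800, plus) held none of the searched motifs.
ALPP: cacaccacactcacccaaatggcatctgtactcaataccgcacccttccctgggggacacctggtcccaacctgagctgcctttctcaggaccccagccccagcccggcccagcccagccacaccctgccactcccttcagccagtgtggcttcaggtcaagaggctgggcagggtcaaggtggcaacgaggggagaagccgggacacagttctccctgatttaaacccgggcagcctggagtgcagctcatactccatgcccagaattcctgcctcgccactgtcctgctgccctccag
ALPG: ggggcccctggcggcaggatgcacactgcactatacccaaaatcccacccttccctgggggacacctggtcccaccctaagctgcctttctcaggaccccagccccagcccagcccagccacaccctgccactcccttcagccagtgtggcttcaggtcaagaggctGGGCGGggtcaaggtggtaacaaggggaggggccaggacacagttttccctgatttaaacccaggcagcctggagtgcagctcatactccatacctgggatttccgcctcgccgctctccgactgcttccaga
For LINC01133 3.47% and for TRIM31 0.738% of such words were shared with other genes, and for the other 6 members none was.

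With MEK inhibitors in AsPC-1 the fitted fold over alone was 1.33 for DPP4 and ran from 3.31 for DEFB1 to 7.71 for AGR2 in the other genes. With ERK inhibitors it was 1.41 for DPP4 and ran from 3.03 for DEFB1 to 9.22 for AGR2. Since these contrasts chose the genes, the values are a description and nothing is read from their size. The median log2 fold change of the members was 2.23 with MEK and 2.50 with ERK inhibitors, beside −0.05 and −0.06 over all tested genes. By log2 fold change among all 12761 tested genes, AGR2 ranked 24th with MEK and 27th with ERK inhibitors, and DPP4 2091st and 1934th. Among 3472 well-counted genes (mean log2 CPM no lower than 5), AGR2 ranked 1st in both classes, whereas DPP4 ranked 380th with MEK and 351st with ERK inhibitors. The mean behind that limit includes the MEK and ERK libraries, where AGR2 was high, while AGR2 averaged 9.94 CPM alone.

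Among the secretory and surface genes, AGR2 had 27.8, 77.9 and 124 CPM (lowest, median and highest of 20 libraries) with MEK inhibitors and 41.9, 78.6 and 164 CPM with ERK inhibitors (16 libraries), against 4.03, 9.83 and 15.2 CPM alone (12 libraries). Every AGR2 value with a MEK or ERK inhibitor lay above every alone value. The log2 fold change was 2.95 ± 0.14 (SE) and 3.20 ± 0.14. DEFB1, the defensin, had 68.4, 98.7 and 141 CPM with MEK inhibitors and 29.99, 95.4 and 132 CPM with ERK inhibitors, against 21.8, 29.04 and 43.6 CPM alone (1.73 ± 0.10 and 1.60 ± 0.10). All 20 MEK libraries and 15 of 16 ERK libraries were above all alone libraries. The exception was a ravoxertinib library with Vps34i at 29.99 CPM. GPA33, the surface antigen, had 83.3, 139.6 and 217 CPM with MEK inhibitors and 43.3, 108 and 223 CPM with ERK inhibitors, against 22.5, 29.04 and 43.0 CPM alone (2.14 ± 0.12 and 1.80 ± 0.12). Its groups did not overlap. TM4SF4 had 193, 276 and 383 CPM with MEK inhibitors and 204, 266 and 342 CPM with ERK inhibitors, against 42.4, 81.7 and 134 CPM alone (1.77 ± 0.07 and 1.73 ± 0.08). Its groups did not overlap either.

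Of the enzymes, DPP4 changed least, with 36.5, 82.3 and 142 CPM with MEK inhibitors and 50.7, 94.4 and 129 CPM with ERK inhibitors, against 35.8, 68.6 and 105 CPM alone (0.41 ± 0.08 and 0.49 ± 0.08). Its groups overlapped: 7 of 20 MEK libraries and 6 of 16 ERK libraries exceeded every alone library. DPP4 differed widely between the autophagy inhibitors, and against alone libraries of the same autophagy inhibitor 7 of 10 MEK libraries were higher both with HCQ and with Vps34i. ALPP had 16.3, 39.5 and 131 CPM with MEK inhibitors and 7.62, 45.01 and 107 CPM with ERK inhibitors, against 2.39, 6.24 and 13.6 CPM alone (2.89 ± 0.15 and 2.72 ± 0.16). The single overlapping library, at 7.62 CPM, again held ravoxertinib and Vps34i. ALDH1A1 had 23.2, 65.2 and 107 CPM with MEK inhibitors and 34.9, 62.7 and 132 CPM with ERK inhibitors, against 4.98, 10.3 and 16.8 CPM alone (2.67 ± 0.12 and 2.82 ± 0.12), with no overlap.

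TRIM31, the ubiquitin ligase, had 64.8, 136 and 211 CPM with MEK inhibitors and 105, 138 and 286 CPM with ERK inhibitors, against 17.3, 28.1 and 38.4 CPM alone (2.23 ± 0.08 and 2.50 ± 0.08). LINC01133 had 38.2, 65.5 and 110.2 CPM with MEK inhibitors and 64.0, 100.1 and 152 CPM with ERK inhibitors, against 5.44, 9.91 and 17.5 CPM alone (2.70 ± 0.12 and 3.20 ± 0.12). For both genes every library with a MEK or ERK inhibitor was above every alone library.

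**Figure D1:**
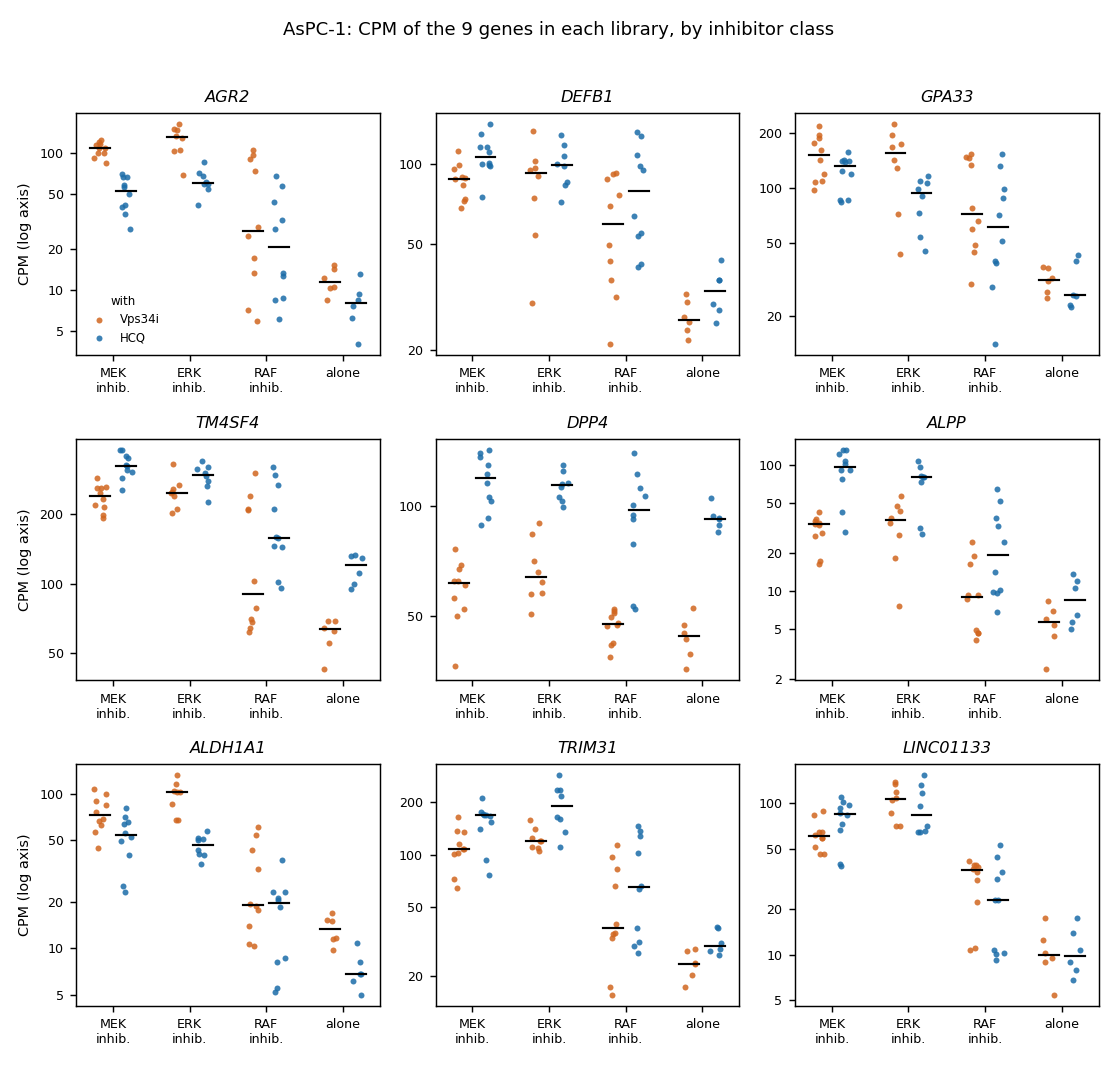
Levels of the 9 genes in every AsPC-1 library by drug class, with CPM on a log axis, points for single libraries (orange Vps34i, blue HCQ) and lines for medians. The alone libraries of AGR2 lie between 4.03 and 15.2 CPM and its MEK and ERK libraries between 27.8 and 164 CPM, while the groups of DPP4 overlap.

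RAF inhibitors give values that did not choose the genes, although they share the alone libraries with the contrasts that did. In AsPC-1, 8 of 9 members were higher with RAF inhibitors as a class, where 3.75% of tested genes were called higher. The median log2 fold change of the 9 was 0.97, beside −0.04 over all tested genes. The largest class value was that of AGR2, at 5.898, 26.2 and 105 CPM (lowest, median and highest of 20 libraries), against 4.03, 9.83 and 15.2 CPM alone. Its RAF libraries spanned the alone range and rose far above it, and the log2 fold change was 1.38 ± 0.14 (edgeR quasi-likelihood test, adjusted p = 3.212e-11). GPA33 followed at 1.18 ± 0.11, LINC01133 at 1.17 ± 0.12, DEFB1 at 1.12 ± 0.10, ALPP at 0.97 ± 0.15, TRIM31 at 0.96 ± 0.08, ALDH1A1 at 0.92 ± 0.12 and TM4SF4 at 0.79 ± 0.07, each called. For DPP4 the value was 0.05 ± 0.08 (adjusted p = 0.776).

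The class value joins drugs that acted differently on these genes. All 9 members differed among the 5 RAF inhibitors (edgeR quasi-likelihood F test), where 10.6% of tested genes did. The adjusted p ran from 1.319e-21 for TRIM31 to 0.007694 for DPP4. The call of DPP4 was lost without replicate 1 (adjusted p = 0.06618) and without replicate 2 (adjusted p = 0.2606), which left 8 members. When the drugs of the class were taken as replicates within 1 plate, DEFB1 alone was called, at 1.24 ± 0.27 on plate A and 1.25 ± 0.24 on plate B. AGR2 was 1.59 ± 0.46 on plate A and 2.29 ± 0.50 on plate B in those fits, and TRIM31 was 1.25 ± 0.33 and 1.26 ± 0.37.

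AGR2 was high with RAF709 and GDC-0879, intermediate with dabrafenib, and near the alone libraries with PLX8394 and sorafenib. With Vps34i its 2 libraries had 74.3 and 105 CPM under RAF709, 91.1 and 97.3 CPM under GDC-0879, 24.7 and 29.03 CPM under dabrafenib, 13.3 and 17.02 CPM under sorafenib, and 5.898 and 7.05 CPM under PLX8394, against 8.39 to 15.2 CPM alone. With HCQ they had 32.4 and 68.5 CPM under RAF709, 43.5 and 57.4 CPM under GDC-0879, 12.6 and 27.7 CPM under dabrafenib, 6.09 and 13.2 CPM under PLX8394, and 8.38 and 8.66 CPM under sorafenib, against 4.03 to 13.04 CPM alone. Both PLX8394 libraries with Vps34i lay below every alone library of that autophagy inhibitor, and both with HCQ lay near the alone range.

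TRIM31 had a similar pattern. With HCQ it had 102.5 and 147 CPM under RAF709, 128 and 137 CPM under GDC-0879, 63.4 and 66.4 CPM under dabrafenib, 27.2 and 37.9 CPM under sorafenib, and 29.9 and 31.6 CPM under PLX8394, against 26.7 to 38.4 CPM alone. The sorafenib and PLX8394 libraries lay inside the alone range and all others above it. With Vps34i and sorafenib it had 15.7 and 17.3 CPM, against 17.3 to 28.9 CPM with Vps34i alone, and 15.7 CPM was its lowest value in AsPC-1.

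DPP4 did not follow this order. With HCQ it had 52.3 and 53.2 CPM under dabrafenib, 111 and 139 CPM under sorafenib, and 78.8 to 122 CPM under the other RAF inhibitors, against 84.6 to 105 CPM alone. Dabrafenib was thus below and sorafenib above every HCQ alone library. With Vps34i no RAF library exceeded the alone range of 35.8 to 52.7 CPM, and none was below it.

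RAF709 differed from the mean of the other 4 RAF inhibitors for 8 of 9 members, all higher, where 3.31% of tested genes were higher. RAF709 was set apart with earlier results of these data known. The calls of this contrast, here and in the lists below, are therefore no independent support. The log2 difference was 1.85 ± 0.17 for AGR2 (edgeR quasi-likelihood test, adjusted p = 1.131e-12), 1.72 ± 0.19 for ALPP and 1.53 ± 0.15 for ALDH1A1. It was 1.37 ± 0.10 for TRIM31, 1.25 ± 0.15 for GPA33, 1.19 ± 0.10 for TM4SF4 and 1.16 ± 0.15 for LINC01133. DEFB1 was 0.50 ± 0.13 higher (adjusted p = 0.01295). Without replicate 2 the calls of DEFB1 (0.34 ± 0.19, adjusted p = 0.4673) and LINC01133 (1.05 ± 0.28, adjusted p = 0.05341) were lost. DPP4 differed by 0.23 ± 0.12 (adjusted p = 0.319). GDC-0879 is part of the other group and had levels near those of RAF709 for part of the members. An example is TM4SF4 with HCQ, at 268 and 297 CPM under GDC-0879, against 94.3 to 134 CPM with HCQ alone. ALPP with HCQ was lower under GDC-0879, at 32.4 and 38.0 CPM, than under RAF709, at 51.8 and 63.5 CPM.

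**Figure D2:**
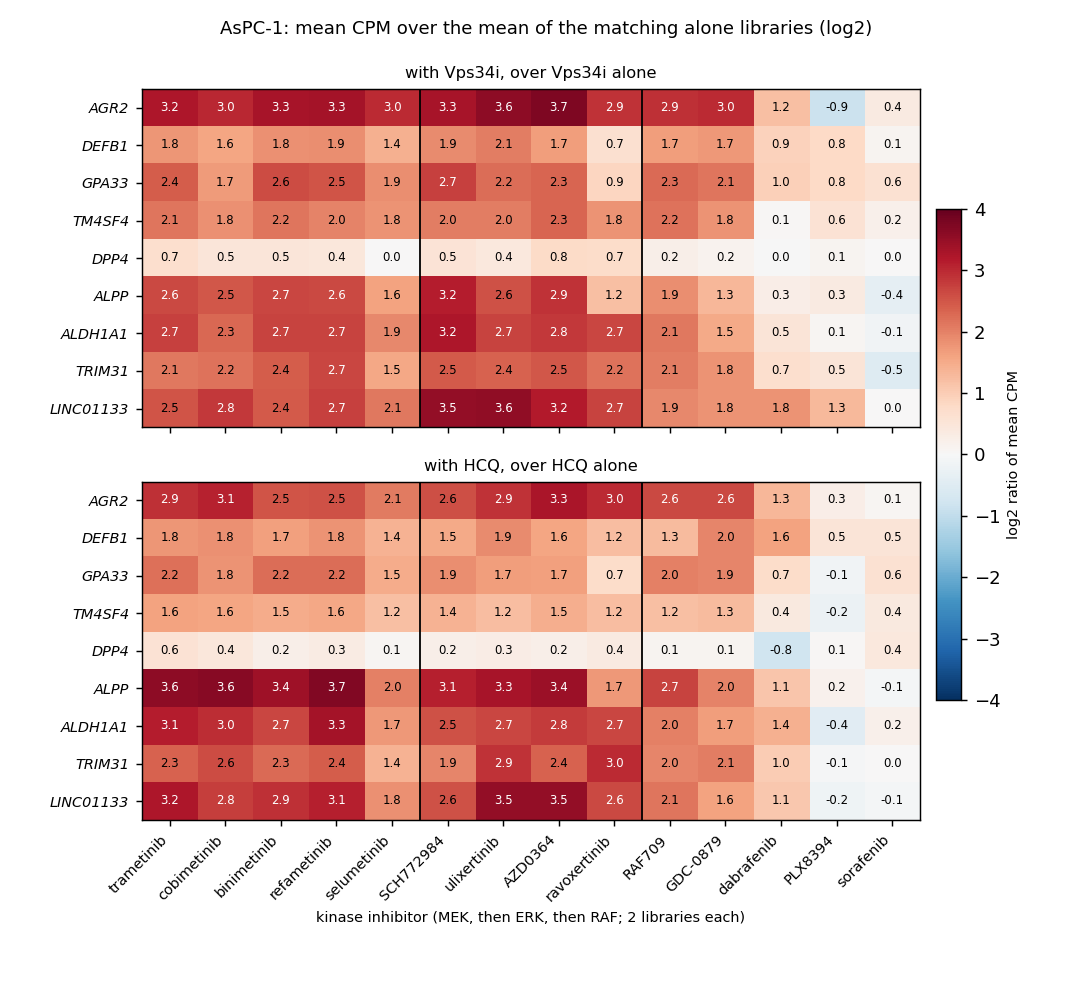
Heat map of the 9 genes by drug in AsPC-1, showing log2 of the mean CPM of 2 libraries over the mean of the 6 alone libraries with the same autophagy inhibitor. With RAF709 and GDC-0879 the genes other than DPP4 are raised, as with the MEK and ERK inhibitors. ALDH1A1, ALPP, TRIM31 and LINC01133 are raised less than with most MEK and ERK inhibitors. Sorafenib and PLX8394 stay near the alone level, and DPP4 is weakly coloured throughout.

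SPRY4 was low with the same drugs. It is a feedback inhibitor whose transcription is driven by ERK and which serves here as a readout of the pathway. With Vps34i it had 18.8 and 25.4 CPM under RAF709, 21.0 and 57.3 CPM under GDC-0879, 30.1 and 71.1 CPM under dabrafenib, 87.4 and 108 CPM under PLX8394, and 98.7 and 134 CPM under sorafenib, against 62.8 to 141 CPM alone. With HCQ it had 21.9 and 27.4 CPM under RAF709 and 48.9 and 62.9 CPM under GDC-0879, against 93.6 to 199 CPM alone. Over all RAF inhibitors with HCQ, 6 of 10 libraries lay below every alone library in SPRY4 and 2 lay above, up to 262 CPM. RAF709 and GDC-0879, which had the highest AGR2, had low SPRY4, but with Vps34i the SPRY4 values of GDC-0879 and dabrafenib overlapped. Whether the levels of these genes depend on each other was not tested.

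**Figure D3:**
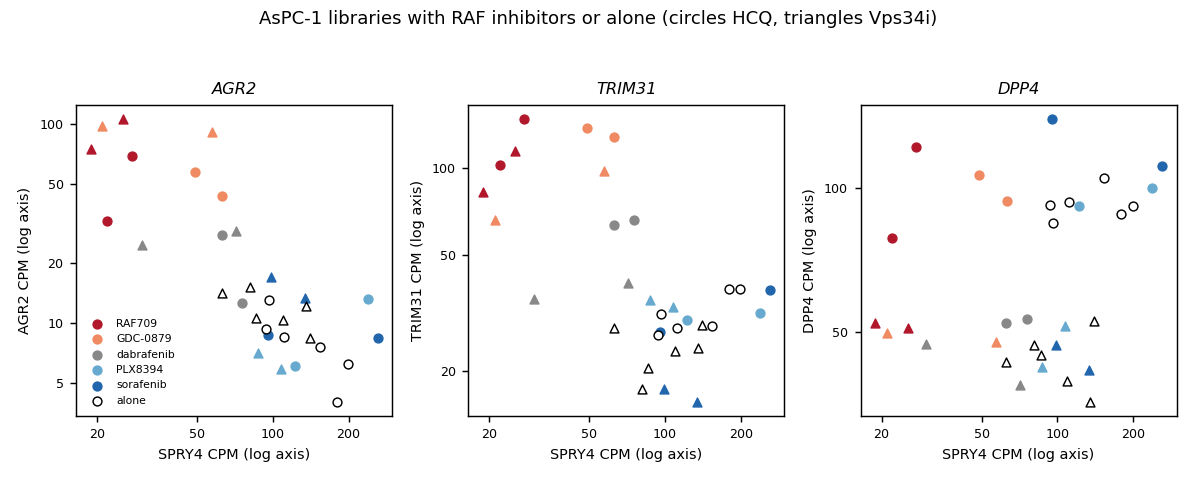
AGR2, TRIM31 and DPP4 against SPRY4 in the AsPC-1 libraries with RAF inhibitors and in those alone, in CPM on log axes with 1 point per library (circles HCQ, triangles Vps34i). RAF709 and GDC-0879 lie at low SPRY4 and high AGR2, and PLX8394 and sorafenib lie among or near the alone libraries.

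Against MEK inhibitors, ERK inhibitors gave higher LINC01133 and TRIM31 in AsPC-1. These libraries are the ones that chose the genes, but not their difference. LINC01133 was higher by 0.50 ± 0.09 (edgeR quasi-likelihood test, adjusted p = 0.0008999) and TRIM31 by 0.27 ± 0.07 (adjusted p = 0.02356). These are 2 of 9 members, where 0.251% of tested genes were higher. GPA33 did not pass at −0.34 ± 0.10 (adjusted p = 0.0903), and the other 6 lay between −0.16 and 0.26. GPA33 passed with DESeq2 (adjusted p = 0.0413) and without cobimetinib, SCH772984 or AZD0364 (−0.43, −0.52 and −0.43), and it was at −0.0088 without ravoxertinib. The calls of LINC01133 and TRIM31 were both lost without selumetinib, which left LINC01133 at 0.33 ± 0.10 and TRIM31 at 0.09 ± 0.07. Both were also lost without ulixertinib, without either replicate, within either plate and with drugs as replicates, and that of TRIM31 without ravoxertinib (0.24 ± 0.07, adjusted p = 0.07706) or without the plate term.

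Among the 5 MEK inhibitors 4 of 9 members differed (ALDH1A1, ALPP, TRIM31 and LINC01133), where 0.627% of tested genes did. In all 4 genes, both libraries with selumetinib were below every library with another MEK inhibitor and the same autophagy inhibitor. TRIM31 (adjusted p = 1.481e-05) had 64.8 and 73.0 CPM under selumetinib with Vps34i, and 101 to 164 CPM under the other MEK inhibitors, against 17.3 to 28.9 CPM alone. ALDH1A1 (adjusted p = 0.002257) had 23.2 and 25.4 CPM under selumetinib with HCQ, and 40.1 to 80.4 CPM under the others, against 4.98 to 10.8 CPM alone. Selumetinib was thus between the alone libraries and the other MEK inhibitors. SPRY4 with HCQ was highest under selumetinib among MEK inhibitors, at 29.9 and 37.5 CPM, where the others ran from 9.75 to 16.3 CPM. Doses differ between the drugs and are not known here. Without either replicate at most 1 of the 4 genes was called.

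Ravoxertinib stood apart among the ERK inhibitors for part of the genes. ALPP, DEFB1, GPA33 and LINC01133 differed among the 4 ERK inhibitors, 4 of 9 members where 1.00% of tested genes did. GPA33 (adjusted p = 0.0001387) had 43.3 and 72.0 CPM under ravoxertinib with Vps34i, and 128 to 223 CPM under the other ERK inhibitors, against 25.2 to 37.1 CPM alone. ALPP (adjusted p = 0.0001387) had 28.0 and 31.3 CPM under ravoxertinib with HCQ, and 73.4 to 107 CPM under the other ERK inhibitors, against 5.03 to 13.6 CPM alone. TRIM31 with HCQ went the other way, with 217 and 286 CPM under ravoxertinib, and 286 CPM was its highest value in AsPC-1, although TRIM31 did not pass the test of differences among ERK inhibitors (adjusted p = 0.278). With Vps34i, SPRY4 under ravoxertinib was as low as under the others, at 9.05 and 10.0 CPM, where the others ran from 2.54 to 16.99 CPM. GPA33 was the member still called without either replicate.

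The autophagy inhibitor moved the genes in different directions. Without a kinase inhibitor, 3 of 9 members differed between Vps34i and HCQ in AsPC-1, where 5.93% of tested genes did. ALDH1A1 had 9.73, 13.2 and 16.8 CPM with Vps34i alone, against 4.98, 6.78 and 10.8 CPM with HCQ alone, and rose by 0.95 ± 0.19 (edgeR quasi-likelihood test, adjusted p = 0.0006584). DPP4 had 35.8, 44.1 and 52.7 CPM with Vps34i alone, against 84.6, 91.9 and 105 CPM with HCQ alone, with no overlap, and fell by 1.01 on the log2 scale (SE 0.13, adjusted p = 8.463e-08). TM4SF4 had 42.4, 63.1 and 69.0 CPM with Vps34i alone, against 94.3, 120.1 and 134 CPM with HCQ alone, also without overlap (−0.88 ± 0.11, adjusted p = 8.629e-08). AGR2 did not pass at 0.66 ± 0.22 (adjusted p = 0.057), although it did with DESeq2 (adjusted p = 0.03859) and without HCQ alone replicate 3 (0.84 ± 0.22, adjusted p = 0.009893) or Vps34i alone replicate 5 (0.74 ± 0.22, adjusted p = 0.03225). Within single plates DPP4 kept its call, at −0.94 ± 0.20 on plate A and −1.09 ± 0.24 on plate B, while ALDH1A1 and TM4SF4 did not pass.

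Under MEK and ERK inhibitors, with 18 libraries per autophagy inhibitor, 7 of 9 members differed between Vps34i and HCQ, where 23.4% of tested genes did. AGR2 had 69.0, 112 and 164 CPM with Vps34i, against 27.8, 58.8 and 85.5 CPM with HCQ, and was higher by 1.17 ± 0.10 (edgeR quasi-likelihood test, adjusted p = 6.645e-13). ALDH1A1 had 44.6, 85.2 and 132 CPM with Vps34i, against 23.2, 50.4 and 80.4 CPM with HCQ (0.91 ± 0.09), and GPA33 was higher by 0.57 ± 0.10. ALPP went the other way, with 7.62, 34.3 and 56.1 CPM with Vps34i, against 28.0, 85.6 and 131 CPM with HCQ (−1.22 ± 0.12). These ranges overlapped in part.

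DPP4 had 36.5, 62.0 and 89.8 CPM with Vps34i, against 88.3, 115 and 142 CPM with HCQ, so that the groups overlapped by 1 library each, and was lower (−0.76 ± 0.07). TRIM31 (−0.39 ± 0.07) and TM4SF4 (−0.24 ± 0.06, adjusted p = 0.003053) were lower as well. DEFB1 at −0.19 ± 0.08 (adjusted p = 0.0824) and LINC01133 at 0.04 ± 0.09 (adjusted p = 0.841) did not pass. The call of TM4SF4 was lost without either replicate (−0.18 ± 0.10 and −0.28 ± 0.10). Within single plates the values were close to the pooled ones, with AGR2 at 1.11 ± 0.37 on plate A and 1.19 ± 0.40 on plate B. Only DPP4 was called in both of those fits.

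**Figure D4:**
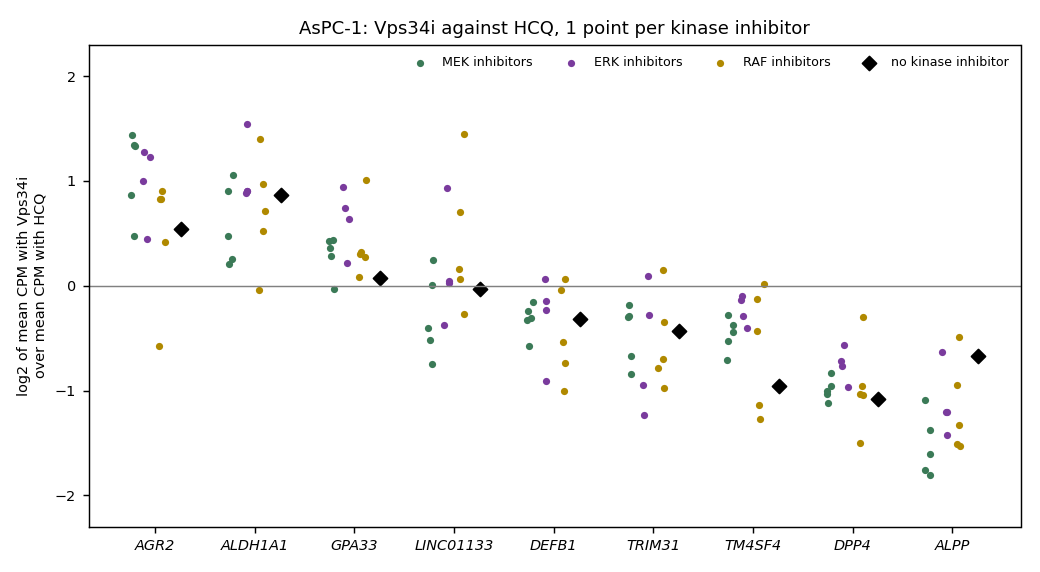
Log2 of the mean CPM with Vps34i over that with HCQ for the 9 genes in AsPC-1, with 1 point per kinase inhibitor coloured by class and a diamond for the libraries without one. Points of AGR2 and ALDH1A1 under MEK and ERK inhibitors lie above 0 and those of DPP4, ALPP and TM4SF4 below it, and the diamond of TM4SF4 lies below its MEK and ERK points.

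The rise under MEK and ERK inhibitors itself depended on the autophagy inhibitor for 1 of 9 members, where 0.212% of tested genes did. TM4SF4 had 193, 248 and 332 CPM with MEK or ERK inhibitors and Vps34i, against 42.4, 63.1 and 69.0 CPM with Vps34i alone. It had 227, 314 and 383 CPM with MEK or ERK inhibitors and HCQ, against 94.3, 120.1 and 134 CPM with HCQ alone. The effect with Vps34i exceeded that with HCQ by 0.64 ± 0.13 (edgeR interaction contrast, adjusted p = 0.006842). It was called neither without replicate 1 (0.71 ± 0.15, adjusted p = 0.06223) nor without replicate 2 (0.61 ± 0.15, adjusted p = 0.1338). Within plates it was 0.45 ± 0.44 on plate A and 0.87 ± 0.51 on plate B. AGR2 (0.51 ± 0.24) and ALPP (−0.62 ± 0.28) had an unadjusted p under 0.05 and did not pass after adjustment.

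In PANC-1 AGR2 was the only member with enough counts to be tested, and it did not rise. It had 43.6, 149 and 261 CPM with ERK inhibitors (16 libraries), 71.9, 193 and 303 CPM with MEK inhibitors (20 libraries) and 106, 189.9 and 396 CPM with RAF inhibitors (20 libraries), against 113, 222 and 370.2 CPM alone (12 libraries). The groups overlapped widely, and 4 of 16 ERK libraries and 3 of 20 MEK libraries were below every alone library. Against alone libraries of the same autophagy inhibitor, 5 of 8 ERK libraries with HCQ and 4 of 8 with Vps34i were below all. So were 3 of 10 MEK libraries with each autophagy inhibitor, and no ERK or MEK library was above all. AGR2 was lower with ERK inhibitors (−0.68 ± 0.06, edgeR quasi-likelihood test, adjusted p = 1.095e-11), where 14.1% of 12627 tested genes were called. Within plate A this difference did not pass (−0.56 ± 0.17, adjusted p = 0.06377), and within plate B it did (−0.67 ± 0.18, adjusted p = 0.03245). It was lower with MEK inhibitors as well (−0.32 ± 0.06, adjusted p = 0.0001066), where 18.5% were called. The RAF inhibitors did not pass at −0.14 ± 0.06 (adjusted p = 0.357), where 0.539% were called. Summed epithelial markers in PANC-1 were 362 to 556 CPM with ERK inhibitors, 336 to 654 with MEK inhibitors and 468 to 848 with RAF inhibitors, against 579 to 759 alone. Summed fibroblast markers were 59.6 to 99.9 CPM with ERK inhibitors, 53.9 to 121 with MEK inhibitors and 24.9 to 119 with RAF inhibitors, against 36.8 to 65.3 alone. Their part in the AGR2 result was not tested. Without trametinib AGR2 under MEK inhibitors was at −0.17 ± 0.06 (adjusted p = 0.07046), and that call was also lost within either plate, without replicate 2, without the plate term and with drugs as replicates.

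The lowest AGR2 values in PANC-1 came with ulixertinib, at 43.6 and 68.8 CPM with Vps34i and 113 and 133 CPM with HCQ. Trametinib had 71.9 and 107.5 CPM with Vps34i and 121 and 209 CPM with HCQ. The alone libraries had 113 to 229.8 CPM with Vps34i and 199 to 370.2 CPM with HCQ. AGR2 was lower with Vps34i alone than with HCQ alone (−0.73 ± 0.10, adjusted p = 1.8e-06), where 2.49% of tested genes were called. In AsPC-1 the same comparison gave 0.66 ± 0.22 for AGR2, and the difference between the lines was not tested. Within plates the PANC-1 value was −0.83 ± 0.26 on plate A and −0.62 ± 0.28 on plate B, and neither passed.

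The RAF effect on AGR2 could be compared between the lines. It did not choose the gene, but it shares the AsPC-1 alone libraries with the contrasts that did. Low values in those libraries would add to the difference, so it is not independent of the choice. The RAF effect was 1.52 ± 0.15 higher in AsPC-1 than in PANC-1 on the log2 scale. In the edgeR quasi-likelihood test on both lines together the adjusted p was 4.744e-13, where 1.68% of 13960 tested genes were called. Within plate A the difference was 1.61 ± 0.46 (adjusted p = 0.2769), and within plate B 2.51 ± 0.50 (adjusted p = 0.02823). Each line has title codes of its own, so line and set cannot be told apart in the levels.

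**Figure D5:**
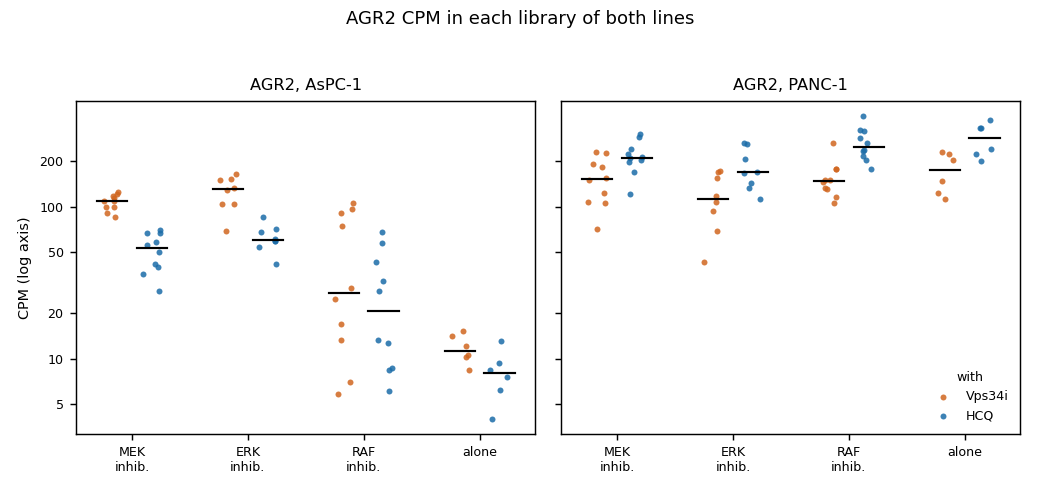
AGR2 in every library of AsPC-1 and PANC-1 by drug class and autophagy inhibitor, in CPM on a log axis with 1 point per library and lines for medians. In AsPC-1 the MEK and ERK libraries lie above the alone libraries, and in PANC-1 the groups overlap with the lowest values, down to 43.6 CPM, among the ERK inhibitors.

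The other 8 genes were close to the limit of counting in PANC-1. Over its 68 libraries and 245406176 counts, GPA33 and DPP4 had 2 counts each, ALDH1A1 had 5, DEFB1 had 8, TM4SF4 had 13, TRIM31 had 20 and ALPP had 28. A total of 0 would still allow 0.0122 CPM (3 counts), and the exact 95% interval of ALPP was 0.0758 to 0.165 CPM, which covers counting error only. LINC01133 was the highest, with 106 counts in 49 libraries and no more than 2.13 CPM in any of them. These 8 genes did not pass the filter on low counts in PANC-1, and no change was detectable there at this depth.

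Within AsPC-1 the genes varied together across the 30 treatment groups, apart from DPP4. Over the 28 pairs without DPP4, Pearson's r of group means on the log2 scale had a median of 0.80 (0.60 to 0.94). Over the 8 pairs with DPP4 the median was 0.33 (0.04 to 0.65). These groups share alone libraries, plates and drug targets, and the genes were picked for rising in most of them, so r is a description. Between plates, group values of 28 drug combinations correlated at 0.80 for DEFB1 to 0.97 for LINC01133.

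The genes whose pattern over the 30 groups was most like the mean of the members were PLAAT4 (r = 0.98), AKR1C4, MUC13, PDZK1IP1, ELF3, ANXA4, SPNS2, PROC, LGALS2 and RTP4 (r = 0.94), out of 7612 genes whose mean log2 CPM was no lower than 3. MUC13 is a membrane mucin of gut epithelium and ELF3 an ETS factor of epithelia. With Spearman's rho 6 of these 10 stayed among the 10 most alike, and over the 68 single libraries 7 did. AKR1C4 has near-identical paralogs, so its counts can be split. Single members had other nearest genes. AGR2 was most like CYSTM1 (r = 0.95), TRIM31 like PLAAT4 (0.97), LINC01133 like ELF3 (0.95) and TM4SF4 like the galectin gene LGALS2 (0.96). ALDH1A1 was most like the aldo-keto reductase gene AKR1C3 (0.96), and ALPP like ALPG (0.95), with which it shares sequence. DPP4 was most like HECTD3 (0.92).

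Other enterocyte and brush border genes moved with the members in AsPC-1 in part. The list was made with earlier results of these data known. A gene with few counts can also pass the filter through the libraries where it is high. The counts of genes in this paragraph are thus a description, and none is read as particular to the list. Of 46 listed genes 24 were tested, and with MEK inhibitors 15 were higher and 4 lower, where 12.9% of all tested genes were higher and 3692 of 12761 were called in either direction. The median log2 fold change was 0.79, beside −0.05 over all genes. With ERK inhibitors 13 were higher and 4 lower (median 0.63), where 13.7% of all tested genes were higher. The actin bundler genes ESPN (2.54 ± 0.25) and VIL1 (1.71 ± 0.08), the membrane mucin MUC13 (2.18 ± 0.07) and the galectin LGALS4 (0.97 ± 0.08) were higher with MEK inhibitors. So were the guanylin genes GUCA2A (1.97 ± 0.44) and GUCA2B (1.63 ± 0.45) and the cadherin CDH17 (0.35 ± 0.07). The aminopeptidase ANPEP, a brush border enzyme like DPP4, was lower (−1.28 ± 0.14), as was the adhesion gene CEACAM1 (−1.22 ± 0.09). With RAF709 set against the other RAF inhibitors 7 of the 24 were higher and none lower, where 3.31% of all tested genes were higher. Among them were VIL1 (1.12 ± 0.11), MUC13 (1.11 ± 0.10) and ESPN (1.33 ± 0.31). In PANC-1 5 of the 46 were tested, and with MEK inhibitors none was higher and 3 were lower, where 18.5% of tested genes were called in either direction.

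For the 4 smaller lists that follow, the counts are to be read against the 12.9% of all tested genes that were higher with MEK inhibitors and the 3692 of 12761 called in either direction, and no count is read as particular to its list. Of 24 goblet and secretory genes 13 were tested, and 3 were higher and none lower with MEK inhibitors in AsPC-1. These were the transcription factor CREB3L1 (2.12 ± 0.15), the peptide gene SPINK4 (1.74 ± 0.36) and the tetraspanin TSPAN8 (1.19 ± 0.08). The AGR2 paralog AGR3 averaged 0.27 CPM with MEK inhibitors and had no count alone. Of 13 tested gut transcription factors (22 listed), ELF3 (1.81 ± 0.07) and HNF4G (0.99 ± 0.37) were higher, and PPARG (−0.40 ± 0.12) and SOX9 (−0.29 ± 0.08) lower.

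Around ALDH1A1, 13 of 21 listed retinoid genes were tested, and 3 were higher and 2 lower with MEK inhibitors. The retinoic acid binding protein gene CRABP2 was at 1.53 ± 0.15 and the related dehydrogenase ALDH1A3 at 0.39 ± 0.06, while the retinol dehydrogenases DHRS9 (−0.66 ± 0.22) and RDH10 (−0.64 ± 0.11) were lower. Around DEFB1, 6 of 22 listed genes of epithelial defence were tested, and the secreted proteins LCN2 (0.98 ± 0.07) and SLPI (0.74 ± 0.06) were higher and none lower.

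Of 26 listed close paralogs of the members 17 were tested, and 4 were higher and 2 lower with MEK inhibitors, where 3692 of 12761 tested genes were called in either direction. The count is near that background. TM4SF20 (2.51 ± 0.22) was higher and TM4SF19 (−2.75 ± 0.68) lower, and TM4SF1 (0.14 ± 0.06), the neighbour of TM4SF4 on chromosome 3, did not pass. ALPG was at 2.19 ± 0.23, with the shared sequence noted above, and ALDH2, the mitochondrial relative of ALDH1A1, at 0.34 ± 0.11. DPP9, a cytosolic relative of DPP4, was lower (−0.95 ± 0.09). With RAF709 set against the other RAF inhibitors ALPG (2.22 ± 0.30) and TM4SF20 (1.55 ± 0.29) were higher and DPP9 (−0.44 ± 0.14) was lower.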

How the data were processed

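PLATE-Seq libraries of AsPC-1 and PANC-1 cells were used as raw counts per gene symbol, which the authors deposited in 1 table. Per the submitters' processing notes the tools and build were kallisto 0.44.0 and GRCh38. Neither the annotation nor the step from transcripts to genes nor the strand setting is stated in those notes. Groups and plates (title codes, not stated to be culture plates) came from the sample titles, and all columns of the table were matched to samples.

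CPM was each count scaled to its library total. Each line was fitted with the edgeR 4.0.16 quasi-likelihood test (R 4.3.3, robust, TMM, filterByExpr) on treatment group and plate. Genes tested were 12761 (AsPC-1), 12627 (PANC-1) and, for a fit of both lines, 13960. A class effect is the average over its drugs less the average of alone groups, weighting both autophagy inhibitors equally. SE is the log2 fold change divided by the root of F. Calls use Benjamini-Hochberg adjusted p under 0.05 over all tested genes. The fit was tested on simulated data. Alternatives used DESeq2 1.42.0 and others given in the closing section. Correlations used log2 CPM with a prior count of 2 in NumPy 2.4.6 and pandas 2.3.3.

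Plate is the replicate block, since each title code holds 1 library of each drug combination. Plate differences correlated weakly between the 28 combinations (median r 0.0445 in AsPC-1 and 0.0709 in PANC-1).

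The members, the gene lists and the contrast of RAF709 with the other RAF inhibitors were chosen with earlier results of these data known. Named genes were all members, the 10 genes most like them, the nearest gene of each, the list genes with the largest called changes in the MEK, RAF, ERK against MEK or PANC-1 MEK comparison, and paralogs. Sequences are from RefSeq. No promoter of DEFB1 is shown.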

Additional observations from a re-analysis of the deposited data

Results flagged for a closer look

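TM4SF4 was picked out because its rise under MEK and ERK inhibitors in AsPC-1 differed between the autophagy inhibitors, by 0.64 on the log2 scale (Vps34i minus HCQ, edgeR quasi-likelihood test). The call was lost without replicate 1, without replicate 2, within each plate and with drugs as replicates. The cause was not tested.

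AGR2 was picked out because its change under RAF inhibitors differed between the lines, by 1.52 on the log2 scale (AsPC-1 minus PANC-1, edgeR quasi-likelihood test). The AsPC-1 alone libraries behind this difference also served to choose the gene. Within plate A the difference did not pass (1.61 ± 0.46, adjusted p = 0.2769).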

How the results depend on the processing

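No called value of a member changed direction under any alternative that was run. Values that did change sign passed neither there nor in the reported fit. Of the values, 51 lost their call, 3 gained one and 4 without a test moved by more than the replicate spread. The other 663 stayed the same, which includes values called in neither fit and untested values within that spread. With a library, replicate or drug left out, 34 lost their call, 10 gained one, 4 moved and 1129 stayed the same. Counts of members called changed as follows, and the causes were not tested. Fits within a plate or with libraries left out have fewer libraries. With no replicate block, that is without the plate pairing, ERK against MEK inhibitors gave 1 call, and in PANC-1 MEK inhibitors gave 0 and Vps34i alone against HCQ alone gave 0. With drugs of a class as replicates, ERK against MEK inhibitors gave 0, the difference of the MEK and ERK effect between autophagy inhibitors gave 0, MEK inhibitors in PANC-1 gave 0, and Vps34i alone against HCQ alone in AsPC-1 gave 1. Within plate A, ERK inhibitors in PANC-1 gave 0 and the RAF difference between the lines gave 0, while Vps34i against HCQ under MEK and ERK inhibitors gave 3 and, within plate B, 1. Within either plate, RAF inhibitors in AsPC-1 gave 1, Vps34i alone against HCQ alone gave 1 (AsPC-1) and 0 (PANC-1), and ERK against MEK inhibitors, the autophagy difference and MEK inhibitors in PANC-1 gave 0. Leaving out a replicate, alone library or drug gave 0 to 3 calls for ERK against MEK inhibitors, 0 to 1 for the autophagy difference, 0 to 1 for MEK inhibitors in PANC-1, 0 to 1 for differences among MEK inhibitors and 1 for those among ERK inhibitors. Fits with a single alone library or a drug left out kept the dispersions of the full fit. Fits with a replicate left out estimated the dispersions again. In those fits each drug combination had 1 library, so the spread rested on the alone libraries. The joint fit of both lines was not run with DESeq2, without a filter, without mitochondrial genes or with libraries left out. Depth limits the 8 genes that were near 0 in PANC-1.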
